A study of Mus musculus with 11 samples.

Results

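The azurophil granule genes are 5 genes, Mpo, Elane, Prtn3, Ctsg and Ms4a3, picked by matching Ensembl identifiers to these symbols among the 55487 genes of the count table. They were measured by bulk RNA sequencing of 11 acute myeloid leukaemia (AML) libraries from mice. Every library, of both genotypes, came from AML with the Flt3-ITD allele, in which a duplication within Flt3 leaves this cytokine receptor active, and with NHD13, a fusion transgene of NUP98 and HOXD13. The groups were 5 Ifnar1 -/- libraries and 6 Ifnar1 +/- libraries, so that one group lacked both functional copies of a subunit of the type I interferon receptor and the other kept one. Ages, the promoter that drives the transgene and the sorting of cells are not given in the labels used here, and the series' design text calls the cells HPCs without saying what the letters stand for. Whether libraries of 1 genotype are from different animals is not in the labels, so p-values reflect only how far these samples spread, which may be technical.

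Azurophil, or primary, granules are the first storage granules that a developing neutrophil or monocyte makes, at the promyelocyte stage. Their contents kill and digest ingested microbes. The genes for these contents are transcribed in granulocyte-monocyte progenitors and promyelocytes and shut off as the cells mature, so that mature neutrophils carry the proteins with little of the transcript. Mpo encodes myeloperoxidase, a haem enzyme that makes hypochlorous acid. Elane, Prtn3 and Ctsg encode the neutrophil serine proteases elastase, proteinase 3 and cathepsin G. Ms4a3 encodes a membrane protein of the MS4A family that marks granulocyte-monocyte progenitors in mice. It is not known as a granule content, so the name of the set describes its other members.

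In the GENCODE M21 annotation of GRCm38, Prtn3 (chr10:79874476-79883174) and Elane (chr10:79886247-79888215) lie next to each other on the plus strand, with 3072 bases between them. Mpo (chr11:87793581-87804413) is on the plus strand, while Ctsg (chr14:56099881-56102574) and Ms4a3 (chr19:11629496-11640851) are on the minus strand. The sequence before each start site is shown because all but one of the genes share a word in it. The windows are RefSeq's for GRCm38.p6 and cover 250 bases before the start site, cut where a GENCODE M21 exon begins. They are Mpo chr11:87793534-87793580, Elane chr10:79886062-79886246, Prtn3 chr10:79879417-79879613, Ctsg chr14:56102575-56102824 and Ms4a3 chr19:11640852-11641101, each written 5′ to 3′ on the strand of its gene. The Prtn3 window lies within the GENCODE gene, because the RefSeq start site is downstream of the GENCODE start at 79874476. Capitals mark AGGAAGT, a word bound by ETS factors such as PU.1.

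Mpo: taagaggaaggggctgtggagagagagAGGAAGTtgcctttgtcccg
Elane: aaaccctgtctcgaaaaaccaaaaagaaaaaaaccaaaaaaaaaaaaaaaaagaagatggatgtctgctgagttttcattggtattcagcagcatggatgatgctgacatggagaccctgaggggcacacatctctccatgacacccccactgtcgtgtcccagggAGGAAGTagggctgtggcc
Prtn3: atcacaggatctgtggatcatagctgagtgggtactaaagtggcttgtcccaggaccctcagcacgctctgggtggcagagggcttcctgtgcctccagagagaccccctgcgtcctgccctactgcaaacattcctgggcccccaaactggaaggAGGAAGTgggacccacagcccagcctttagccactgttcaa
Ctsg: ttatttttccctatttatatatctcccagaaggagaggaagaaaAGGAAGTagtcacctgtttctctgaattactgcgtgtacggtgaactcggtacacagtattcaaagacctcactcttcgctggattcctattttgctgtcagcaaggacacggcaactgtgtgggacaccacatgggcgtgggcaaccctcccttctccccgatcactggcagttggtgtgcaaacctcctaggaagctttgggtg
Ms4a3: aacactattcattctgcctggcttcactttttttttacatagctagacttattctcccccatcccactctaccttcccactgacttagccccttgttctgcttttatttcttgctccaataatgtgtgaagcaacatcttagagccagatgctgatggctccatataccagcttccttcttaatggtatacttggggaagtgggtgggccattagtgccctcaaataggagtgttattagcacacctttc

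AGGAAGT, searched on both strands of the full 250 bases, was in 4 of the 5 windows, and each copy ran in the direction of its gene. It lay at bases -223 to -217 of Mpo, -84 to -78 of Elane, -94 to -88 of Prtn3 and -206 to -200 of Ctsg, counted back from the RefSeq start site. Of 27025 RefSeq mouse windows of this length, 7.8% held it. The MYB word AACNG was in 4 of the 5 (74.1% of all windows), and the RUNX word TGTGGT was in 1, that of Ctsg (14.2% of all). The C/EBP word TTGCNNAA (9.55% of all) and the GATA word AGATAA (10.3% of all) were in 0 of the 5. AACNG matches overlapped no AGGAAGT match. The words were chosen after the windows had been read, and a match is a description of letters, not of binding.

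Library depth ran from 25583642 to 38728143 estimated counts, and levels are given as CPM, that is, counts per library brought to one total, with TMM scaling. All 5 genes passed the filter on low counts, as did 14521 genes in all. The genes were scarce: the sum of all 5 was at most 0.0103% of a library. That was in Ifnar1 -/- library 2, and Ifnar1 +/- library 4 had nearly the same share, 0.0100%. Ebf1, a transcription factor of B cells, was at 530 to 744 CPM in 5 libraries (Ifnar1 -/- 3 and 5, Ifnar1 +/- 3, 4 and 5) and at most 8.71 CPM in the other 6. In those 5 the summed level of 12 B-lineage genes was 6818 to 10277 CPM, although the labels call all 11 libraries AML. Ifnar1 -/- library 2 stood apart from the rest, with 68391 CPM of 10 eosinophil genes and 39024 CPM of 10 late neutrophil genes. The genes' log2 fold changes and correlations and the lists' medians are given with and without it where it moves them. The count covers the whole Ifnar1 gene, so its transcript does not check the genotype.

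Mpo had 0.123, 20.9, 3.61, 0.0736 and 16.1 CPM in Ifnar1 -/- libraries 1 to 5, against a lowest of 0.934, a median of 15.3 and a highest of 53.5 CPM in the 6 Ifnar1 +/- libraries. Its values in Ifnar1 -/- libraries 1 and 4 rest on 4 and 2 counts, with 95% Poisson intervals of 0.0336 to 0.316 and 0.00891 to 0.266 CPM. Both intervals lie below every Ifnar1 +/- library, but the other 3 Ifnar1 -/- libraries lie within the Ifnar1 +/- range, so the groups overlap. These intervals, like all floors and intervals here, cover counting error only.

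Elane, which encodes neutrophil elastase, was likewise lowest in Ifnar1 -/- libraries 1 and 4. It had 0.0308, 1.44, 4.29, 0 and 12.4 CPM in Ifnar1 -/- libraries 1 to 5, against a lowest of 0.503, a median of 7.92 and a highest of 33.5 CPM in the Ifnar1 +/- libraries. The 0 in Ifnar1 -/- library 4 was a count of 0, which allows a level of up to 0.110 CPM (3 counts; the 95% Poisson upper limit is 0.136 CPM), and library 1 had 1 count. Library 2 was below libraries 3 and 5 for Elane. For Mpo it had the highest CPM of its genotype, with a TMM factor of 0.681 against 1.11 in library 5. Its Mpo counts were fewer, at 406 against 503 in library 5.

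Ctsg, the gene of cathepsin G, rested on few counts. It had 0.123, 0.618, 2.43, 0.184 and 1.56 CPM in Ifnar1 -/- libraries 1 to 5, against a lowest of 0.431, a median of 1.98 and a highest of 2.36 CPM in Ifnar1 +/- libraries. Between 4 and 92 counts stood behind each value, so its order among the libraries above 1 CPM is within counting error for each pair of neighbours. Ifnar1 -/- libraries 1 and 4 were again the lowest, and the highest library, Ifnar1 -/- 3, was of the same genotype.

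Prtn3, the gene of proteinase 3, had another pattern. It had 4.93, 40.5, 1.39, 1.73 and 6.99 CPM in Ifnar1 -/- libraries 1 to 5, against a lowest of 1.13, a median of 5.37 and a highest of 15.2 CPM in Ifnar1 +/- libraries. Libraries 1 and 4, which were near 0 for Mpo and Elane, held 160 and 47 counts of it and lay inside the Ifnar1 +/- range. Library 2 was above every other library.

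Ms4a3 had 1.45, 87.6, 4.43, 1.77 and 4.82 CPM in Ifnar1 -/- libraries 1 to 5, against a lowest of 0.503, a median of 5.34 and a highest of 6.47 CPM in Ifnar1 +/- libraries. Library 2 held 1701 counts and stood far above the other 10, which lay between 0.503 and 6.47 CPM. The highest library exceeded the lowest 174-fold for Ms4a3, and 19.7-fold for Ctsg.

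**Figure D1:**
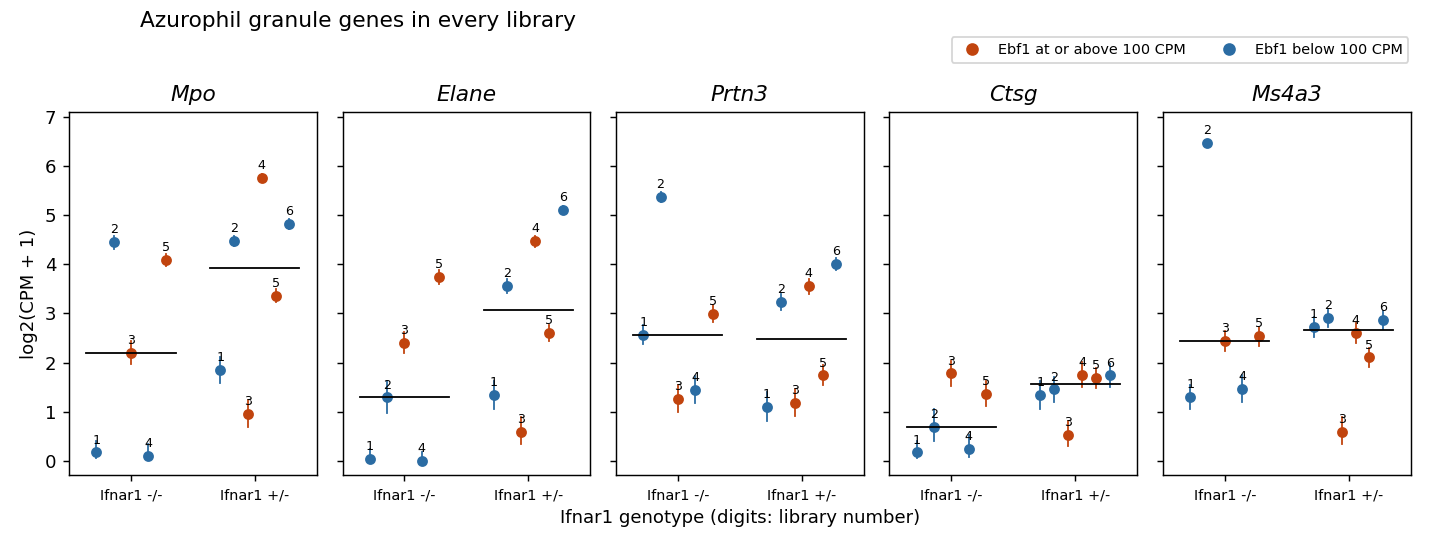
Level of each gene as log2(CPM + 1) in the 5 Ifnar1 -/- libraries (left of each panel) and the 6 Ifnar1 +/- libraries (right). Each point is a library with its number, vertical lines are 95% Poisson intervals of the count, horizontal lines are group medians and colour marks the Ebf1 level. Ifnar1 -/- library 2 is highest for Prtn3 (40.5 CPM) and Ms4a3 (87.6 CPM), and the groups overlap in every panel.

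Read per length, the makeup of the set differed between libraries. Levels were divided by the length of each gene's exons in kilobases (RPKM) and given as a share of the summed RPKM of the 5 genes. Elane led with 39.9% and 49.6% in Ifnar1 -/- libraries 3 and 5, and with 40.4%, 44.5%, 39.3% and 60.3% in Ifnar1 +/- libraries 2, 4, 5 and 6. Prtn3 and Ms4a3 led in Ifnar1 -/- libraries 1, 2 and 4. Prtn3 held 74.9%, 30.0% and 46.8% there, and Ms4a3 held 20.2%, 59.6% and 43.9%. Ms4a3 also led in Ifnar1 +/- library 1 with 40.02%, and Prtn3 in Ifnar1 +/- library 3 with 33.1%. Ifnar1 +/- library 3 had only 101 counts over the 5 genes. The summed CPM was 6.66, 151, 16.2, 3.75 and 41.8 in Ifnar1 -/- libraries 1 to 5, against 3.63 to 92.9 CPM in Ifnar1 +/- libraries, so the shares describe sets of very different size.

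**Figure D2:**
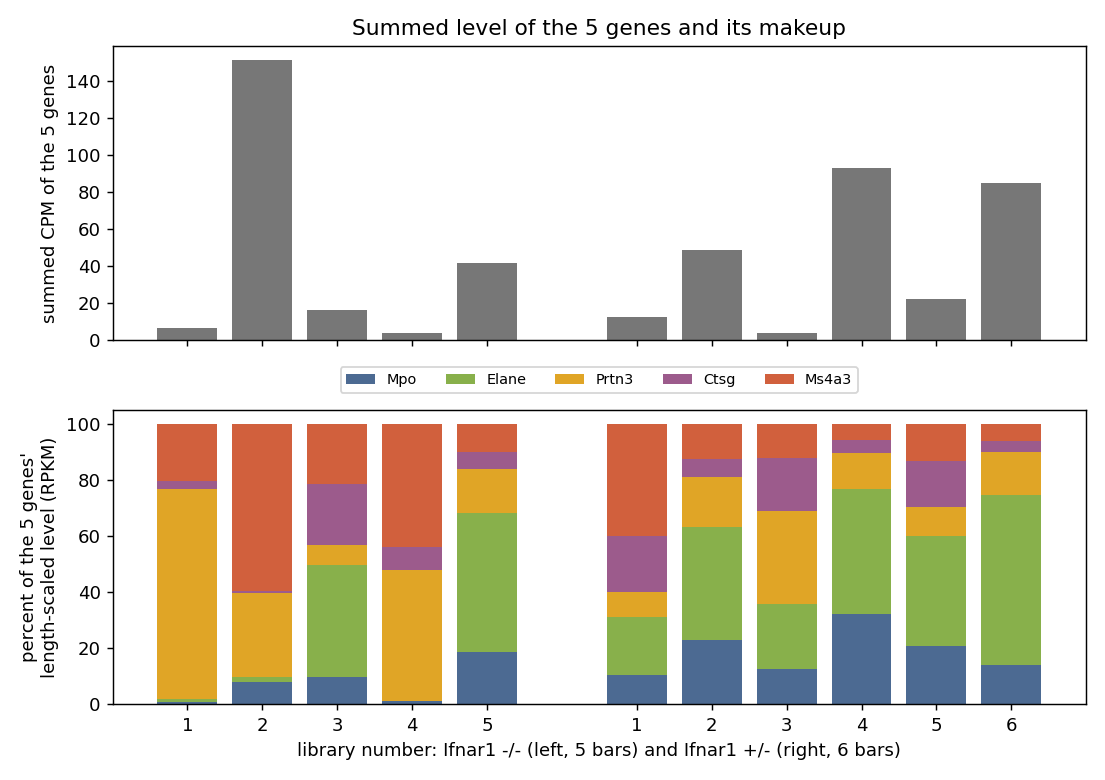
The top panel plots the summed CPM of the 5 genes and the bottom panel each gene's percent of their summed RPKM, for the 5 Ifnar1 -/- libraries (left) and the 6 Ifnar1 +/- libraries (right). There is 1 bar per library and no error bar. Prtn3 and Ms4a3 fill most of the bar in Ifnar1 -/- libraries 1, 2 and 4, and Elane is the widest band in 6 other libraries.

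The adjacent genes Prtn3 and Elane gave the clearest case. Their reads were in a ratio of 787 to 28 in Ifnar1 -/- library 2, which is 28.1 Prtn3 reads per Elane read (95% interval 19.3 to 42.6, exact binomial). Ifnar1 -/- library 1 had 160 to 1, a ratio with an interval of 28.3 to 6359. Library 4 had 47 to 0, which against a floor of 3 counts is 15.7. The exact binomial lower limit of its ratio is 12.2. In Ifnar1 -/- libraries 3 and 5 the ratio was 0.325 (0.220 to 0.470) and 0.564 (0.476 to 0.668). Across the Ifnar1 +/- libraries it was 0.453 to 0.780 in 5 and 2.50 (1.31 to 5.03) in library 3. The 3 libraries with the highest ratios were the 3 Ifnar1 -/- libraries with little Ebf1, and the 3 Ifnar1 +/- libraries with little Ebf1 (1, 2 and 6) had 0.737, 0.780 and 0.453. This pair was singled out after the values were seen, so no test is given.

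**Figure D3:**
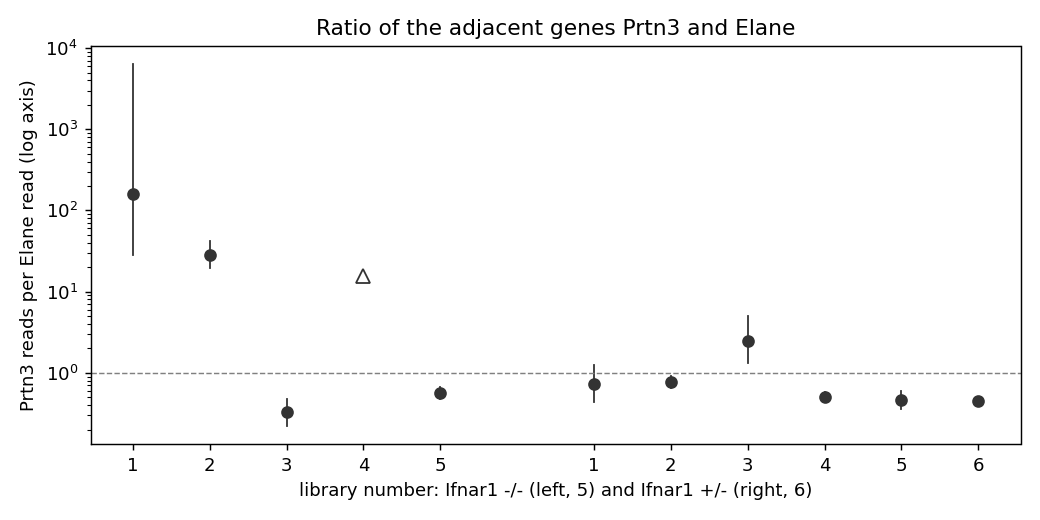
Prtn3 reads per Elane read on a log axis, for the 5 Ifnar1 -/- libraries (left) and the 6 Ifnar1 +/- libraries (right). Points are ratios of counts with 95% exact binomial intervals, the open triangle is the ratio of 15.7 against a floor of 3 counts for a library with 0 Elane counts (exact binomial lower limit 12.2), and the dashed line marks equal counts. Ifnar1 -/- libraries 1, 2 and 4 lie above all others.

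Part of the Prtn3 count cannot be separated from another gene. In GENCODE M21 159 exon bases at its start, which is upstream of the RefSeq window shown above, overlap an exon of Plppr3 on the opposite strand. Whether the counting used strand is not given in the sources used here. Plppr3 had 2.68, 9.32, 11.5, 2.36 and 3.80 CPM in Ifnar1 -/- libraries 1 to 5, against 1.41 to 8.81 CPM in Ifnar1 +/- libraries. Its highest library, Ifnar1 -/- 3, was among the lowest for Prtn3, but its part in the low Prtn3 values was not tested. Mpo shares 512 exon bases with the antisense gene Gm11505, which was at most 0.206 CPM. Sequence shared with other genes was searched in the direction of the transcripts only. There 0 of the 31-base words of Elane, Prtn3 and Ctsg were found in transcripts of other genes, against 0.464% for Mpo and 0.798% for Ms4a3. These shares leave out the overlaps with Plppr3 and Gm11505, which are on opposite strands.

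Between the genotypes, edgeR's quasi-likelihood test with Benjamini-Hochberg adjustment called 0 of the 5 genes at an adjusted p under 0.05, where 0 of 14521 genes (0%) were called. At an unadjusted p under 0.05 it found 289 genes (1.99%), also with 0 of the 5, while DESeq2, which gave no p for Ms4a3, called 3 other genes and limma voom 0. Mpo averaged 8.15 ± 9.69 CPM in the Ifnar1 -/- libraries and 19.2 ± 19.8 CPM in the Ifnar1 +/- libraries (SD, n = 5 and n = 6), a log2 fold change of -1.23 (SE 1.33). Elane averaged 3.63 ± 5.20 CPM in the Ifnar1 -/- libraries and 12.1 ± 12.9 CPM in the Ifnar1 +/- libraries, with a log2 fold change of -1.73 (SE 1.46). Ctsg averaged 0.984 ± 0.993 CPM in the Ifnar1 -/- libraries and 1.77 ± 0.737 CPM in the Ifnar1 +/- libraries, with a log2 fold change of -0.84 (SE 0.75). All 3 had lower averages in the Ifnar1 -/- libraries, with ranges that overlapped between the genotypes.

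Prtn3 and Ms4a3 had the opposite sign, and 1 library set it. Prtn3 averaged 11.1 ± 16.6 CPM in the Ifnar1 -/- libraries and 6.51 ± 5.85 CPM in the Ifnar1 +/- libraries, with a log2 fold change of 0.77 (SE 0.98). Ms4a3 averaged 20.0 ± 37.8 CPM in the Ifnar1 -/- libraries and 4.54 ± 2.29 CPM in the Ifnar1 +/- libraries, with a log2 fold change of 2.14 (SE 1.09). Leaving out Ifnar1 -/- library 2 turned these values to -0.80 for Prtn3 and -0.53 for Ms4a3. Its medians, 4.43 CPM in the Ifnar1 -/- libraries and 5.34 CPM in the Ifnar1 +/- libraries, are in that order too. The edgeR adjusted p was 0.9998 for each of the 5 genes. Two-sided exact permutation tests of log2(CPM + 1) gave p = 0.271 for Mpo, 0.184 for Elane, 0.768 for Prtn3, 0.139 for Ctsg and 0.671 for Ms4a3, where the smallest p that 5 against 6 libraries allow is 0.00216. The ranges of the genotypes did not overlap for 0 of the 5 genes and for 18 of all genes (0.124%). In bulk libraries, fewer cells that make a transcript and less of it per cell cannot be told apart.

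**Figure D4:**
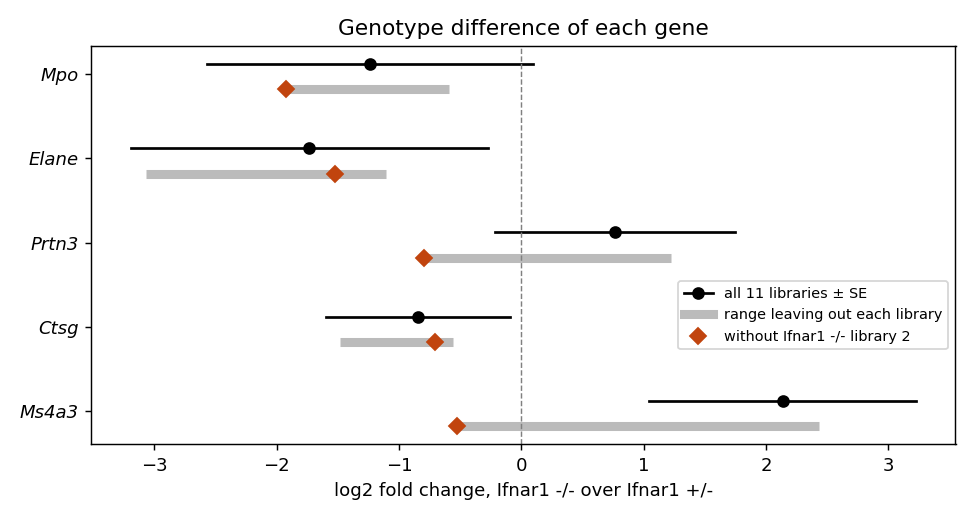
Log2 fold change, Ifnar1 -/- over Ifnar1 +/-, of each gene from edgeR. Black points and lines are all 11 libraries with 1 SE either side, grey bars span the values when each library is left out in turn, and diamonds leave out Ifnar1 -/- library 2. Without that library all 5 values are below 0, at -1.93, -1.52, -0.80, -0.70 and -0.53 from top to bottom.

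By Ebf1 level, which is a measured value and no group of the study, the ranges overlapped for each of the 5 genes, so 0 were apart. Among all tested genes 3058 (21.1%) were apart. Mpo had a lowest of 0.934, a median of 9.28 and a highest of 53.5 CPM in the 5 libraries with high Ebf1, against 0.0736, 11.8 and 27.4 CPM in the 6 with low Ebf1. Elane had 0.503, 5.06 and 21.2 CPM with high Ebf1, against 0, 1.49 and 33.5 CPM with low Ebf1. Ctsg had 0.431, 2.22 and 2.43 CPM with high Ebf1, against 0.123, 1.07 and 2.33 CPM with low Ebf1. These 3 genes were thus detected in every library with strong B-lineage transcripts. For Prtn3 the values were 1.26, 2.34 and 10.8 CPM with high Ebf1, against 1.13, 6.67 and 40.5 CPM with low Ebf1. For Ms4a3 they were 0.503, 4.43 and 5.08 CPM with high Ebf1, against 1.45, 5.96 and 87.6 CPM with low Ebf1.

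Across the 11 libraries the genes moved together in part. Over their 10 pairs, Pearson's r of log2(CPM + 1) had an adjusted permutation p under 0.05 in 5, where adjustment is by Benjamini-Hochberg over the 10. Mpo and Elane had r = 0.88 (Spearman's rho 0.88, permutation p = 0.001 and 0.00079, adjusted p = 0.00655 and 0.0079), and r was 0.78 without the 2 libraries farthest from the median of Mpo. Elane and Ctsg had r = 0.85 (rho 0.81, permutation p = 0.00131 and 0.00394, adjusted p = 0.00655 and 0.0197), and r was 0.81 without 2 libraries. Prtn3 and Ms4a3 had r = 0.77 (rho 0.63, permutation p = 0.00609 and 0.0444, adjusted p = 0.0203 and 0.0740), and r was 0.68 without 2. Mpo had r = 0.71 with Prtn3 (rho 0.75, permutation p = 0.0156 and 0.00866, adjusted p = 0.0340 and 0.0278) and 0.82 without 2 libraries. This pair kept an adjusted p under 0.05 in only 5 of 13 alternatives. Its adjusted permutation p was 0.0515 to 0.0761 with a pseudocount of 0.1 or without Ifnar1 -/- library 4 or 5 or Ifnar1 +/- library 1, 2, 3, 4 or 6. Mpo and Ctsg had r = 0.72 (rho 0.70, permutation p = 0.0170 and 0.0197, adjusted p = 0.0340 and 0.0394), but only 0.41 without Ifnar1 -/- libraries 1 and 4, on which this relation rests. It kept its call in 4 of 13 alternatives, with an adjusted permutation p of 0.0502 to 0.1085 with a pseudocount of 5 or without Ifnar1 -/- library 1, 4 or 5 or Ifnar1 +/- library 2, 3, 4, 5 or 6. Mpo with Elane and Elane with Ctsg kept theirs in 13 of 13.

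The genes of the neutrophil proteases did not all run together. Elane and Prtn3, although neighbours, had r = 0.44 (rho 0.50, permutation p = 0.176 and 0.122, adjusted p = 0.252 and 0.153), and Prtn3 and Ctsg had r = 0.09 (rho 0.22, permutation p = 0.791 and 0.522, adjusted p = 0.791 and 0.522). Without the 2 libraries farthest from the median these became 0.24 and 0.41. Mpo and Ms4a3 had r = 0.59 (rho 0.75, permutation p = 0.0380 and 0.0111, adjusted p = 0.0633 and 0.0278), and r was 0.48 without 2 libraries. Elane and Ms4a3 had r = 0.22 (rho 0.54, permutation p = 0.565 and 0.0930, adjusted p = 0.706 and 0.133), and 0.13 without 2. Ctsg and Ms4a3 had r = 0.18 (rho 0.39, permutation p = 0.642 and 0.238, adjusted p = 0.713 and 0.264), and -0.17 without 2.

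One library made up much of this split. Without Ifnar1 -/- library 2, Mpo and Elane had r = 0.97 (adjusted permutation p = 0.0002), Elane and Prtn3 0.76 (0.0221), Elane and Ms4a3 0.78 (0.0159) and Ctsg and Ms4a3 0.82 (0.0159). In that set of 10 libraries 8 of the 10 pairs had an adjusted permutation p under 0.05. Prtn3 and Ms4a3, at 0.51 (adjusted permutation p = 0.147), no longer did, and they also missed it without Ifnar1 +/- library 3 (adjusted permutation p = 0.0504). Within the 6 libraries with low Ebf1, Mpo and Elane had r = 0.83 (exact permutation p = 0.0403, adjusted p = 0.171) and Elane and Ctsg 0.90 (exact permutation p = 0.00833, adjusted p = 0.0833), and 0 of the 10 pairs had an adjusted p under 0.05. The 5 libraries with high Ebf1 were too few for a value.

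**Figure D5:**
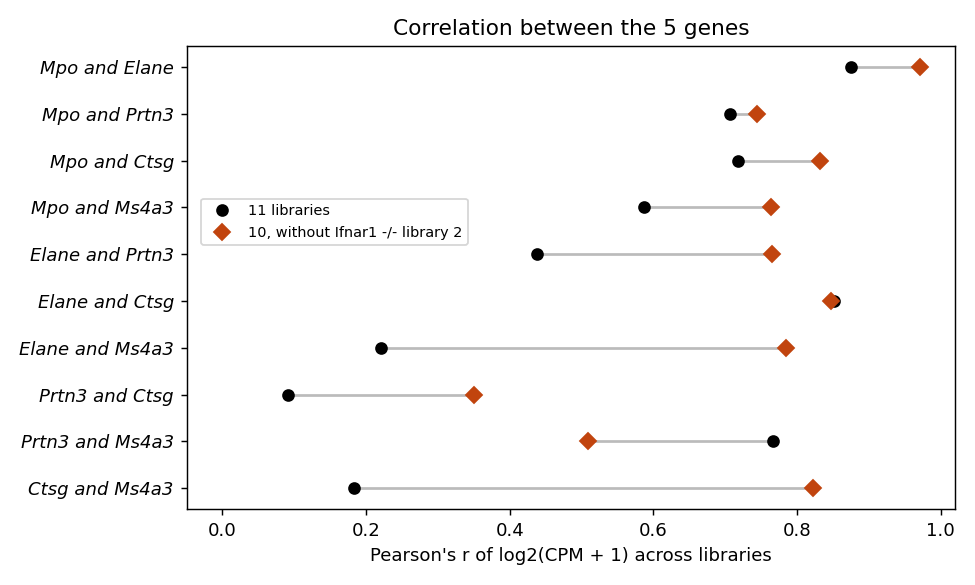
Pearson's r of log2(CPM + 1) for the 10 pairs of genes, over 11 libraries (black points) and over the 10 libraries without Ifnar1 -/- library 2 (diamonds). Grey lines join the values of a pair. The r of Elane and Ms4a3 is 0.22 with that library and 0.78 without it, and the r of Prtn3 and Ms4a3 is 0.77 with it and 0.51 without it.

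The genes most like the set were ranked by Pearson's r with the mean of the 5 centred log2(CPM + 1) profiles over 11 libraries. Among the first 8 were Dnajb11 (r = 0.86), Atf4 (0.85), Pilra (0.85), Lyz2 (0.84), Mdh2 (0.84), Cyb5r1 (0.83) and C3 (0.83). Of the 8, 0 were still among the first 8 without Ifnar1 -/- library 2, and 2 were when Spearman's rho was used. Lyz2, the gene of lysozyme M, had a lowest of 12.1, a median of 68.3 and a highest of 108 CPM in Ifnar1 -/- libraries, against 10.1, 64.4 and 148 CPM in Ifnar1 +/- libraries. Taken singly, Elane ranked 2 by likeness to Mpo, and Ctsg ranked 9 by likeness to Elane. These ranks, like the first 8 above, are among tested genes with a symbol, with predicted (Gm, Rik) genes left out. Prtn3 ranked 1568 by likeness to Elane. The genes most like Prtn3, Ctsg and Ms4a3 were Fabp4 (r = 0.92), Socs3 (r = 0.96) and Cndp2 (r = 0.96), each chosen after its value was seen.

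The other contents of azurophil granules were found in every library. Of 15 such genes, most of them lysosomal hydrolases, 15 were tested and 0 passed, with a median log2 fold change of 0.12, against -0.01 over all tested genes. Without Ifnar1 -/- library 2 these medians were 0.01 and -0.03. Their summed level was 1443, 4035 and 10695 CPM (lowest, median, highest) in Ifnar1 -/- libraries, against 901, 3870 and 15017 CPM in Ifnar1 +/- libraries. The 4 with the highest means were Cd63, a granule membrane tetraspanin, Ctsd (cathepsin D), Glb1 (beta-galactosidase) and Man2b1 (lysosomal alpha-mannosidase). Ctsd had 832, 2724, 237, 1441 and 297 CPM in Ifnar1 -/- libraries 1 to 5, against 158 to 3174 CPM in Ifnar1 +/- libraries. Within its genotype, library 4, with 0 Elane counts, was below library 2 alone for Ctsd. By Ebf1 level, 6 of the 15 had ranges apart, all lower with high Ebf1, while 1307 of all 14521 tested genes were lower in that way. So were 4 of the 13 genes of the next list, which process, store or inhibit granule proteins, and at most 2 genes of any other list. Prss57, which encodes a serine protease of the same granules, had 25.7, 180, 20.1, 16.0 and 12.9 CPM in Ifnar1 -/- libraries 1 to 5, against 3.38 to 32.8 CPM in Ifnar1 +/- libraries. It too was highest in library 2, and it is named here after its values were seen.

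Genes that process, store or inhibit these proteins gave 0 of 13 called, with a median log2 fold change of -0.13. Srgn, whose product serglycin holds granule proteins, had the highest mean, and a range of 377 to 4354 CPM in Ifnar1 -/- against 277 to 6071 CPM in Ifnar1 +/- libraries. Serpinb1a, an inhibitor of elastase, proteinase 3 and cathepsin G, was at 212 to 2645 CPM in Ifnar1 -/- and 130 to 3957 CPM in Ifnar1 +/- libraries. Calr and Canx, the chaperones of newly made myeloperoxidase, varied less, with Calr at 249 to 564 CPM in Ifnar1 -/- and 263 to 640 CPM in Ifnar1 +/- libraries. Canx was at 408 to 605 CPM in Ifnar1 -/- and 396 to 765 CPM in Ifnar1 +/- libraries. Ctsc, whose product cathepsin C activates the granule serine proteases, was at 115 to 391 CPM in Ifnar1 -/- and 73.3 to 1956 CPM in Ifnar1 +/- libraries. Haem synthesis, which supplies the myeloperoxidase cofactor, gave 0 of 8 called with a median log2 fold change of -0.20. Alas1, its first enzyme outside red cells, had 791 CPM in Ifnar1 -/- library 2 and 49.4 to 70.8 CPM in the other Ifnar1 -/- libraries, against 55.3 to 103 CPM in Ifnar1 +/- libraries.

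Of 11 transcription factors known to act on granulocyte and monocyte genes, 9 were tested and 0 were called, with a median log2 fold change of -0.07 (-0.27 without Ifnar1 -/- library 2). Cebpa, which is required for granulocyte-monocyte progenitors, was at most 0.286 CPM in Ifnar1 -/- and 0.681 CPM in Ifnar1 +/- libraries and did not pass the filter on low counts. Spi1, the gene of PU.1, had 49.6, 507, 45.7, 53.5 and 28.5 CPM in Ifnar1 -/- libraries 1 to 5, against 26.6 to 89.3 CPM in Ifnar1 +/- libraries. Cebpe, which acts at the promyelocyte stage and later, had 652 CPM in Ifnar1 -/- library 2 and 0 to 11.3 CPM in the other Ifnar1 -/- libraries, against 0.539 to 36.5 CPM in Ifnar1 +/- libraries. Myb, whose product acts on Elane and Mpo in immature cells, was at 40.0 to 99.3 CPM in Ifnar1 -/- and 22.5 to 198 CPM in Ifnar1 +/- libraries. Gata2 was at 5.07 to 338 CPM in Ifnar1 -/- and 5.37 to 498 CPM in Ifnar1 +/- libraries, and Irf8 at 0.662 to 210 CPM in Ifnar1 -/- and 1.73 to 262 CPM in Ifnar1 +/- libraries. By Ebf1 level the ranges of both were apart, as for 21.1% of all tested genes. Irf8 was at 154 to 262 CPM with high Ebf1 against 0.662 to 7.36 CPM with low Ebf1. Gata2 was at 5.07 to 73.0 CPM with high Ebf1 against 91.7 to 498 CPM with low Ebf1. Cebpa and Cebpe are named after their values were seen.

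Of 23 genes next to the members or related to them, 19 were tested and 0 were called, with a median log2 fold change of -0.0013 (-0.11 without Ifnar1 -/- library 2). Cfd, the neighbour of Elane on its far side, had 0 counts in 10 of the 11 libraries. Lpo, a peroxidase gene next to Mpo, had 0 counts in all 11. Of the other genes near Prtn3 and Elane, none was near 0 in Ifnar1 -/- libraries 1 and 4, where Elane had 1 and 0 counts. Ptbp1 was at 285 to 554 CPM in Ifnar1 -/- and 316 to 626 CPM in Ifnar1 +/- libraries. Med16 was at 33.4 to 71.3 CPM in Ifnar1 -/- and 32.3 to 90.4 CPM in Ifnar1 +/- libraries, and R3hdm4 at 159 to 326 CPM in Ifnar1 -/- and 109 to 239 CPM in Ifnar1 +/- libraries. Arid3a was at 11.2 to 153 CPM in Ifnar1 -/- and 7.32 to 46.6 CPM in Ifnar1 +/- libraries. Ms4a2, which lies beside Ms4a3 and encodes a chain of the mast cell IgE receptor, had 110, 3.86, 6.72, 517 and 154 CPM in Ifnar1 -/- libraries 1 to 5, against 9.85 to 501 CPM in Ifnar1 +/- libraries. It was lowest of all in library 2, where Ms4a3 was highest, and it is named after its values were seen. Gzmb and Cma1, protease genes of the cluster that holds Ctsg, reached 1300 and 1616 CPM in Ifnar1 -/- library 4, where Ctsg had 5 counts. In Ifnar1 +/- libraries they were at 7.57 to 6240 and 12.7 to 1432 CPM. Gzmb was highest in Ifnar1 +/- library 1, where Ctsg had 38 counts.

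Markers of the cell types that such samples may hold varied between libraries, and their part in the results above was not tested. Of 10 late neutrophil markers 10 were tested, 0 were called and the median log2 fold change was 0.33, or -0.76 without Ifnar1 -/- library 2. Their sum was 316, 39024, 4699, 4.31 and 992 CPM in Ifnar1 -/- libraries 1 to 5, against 235 to 7262 CPM in Ifnar1 +/- libraries. Ngp, Retnlg, S100a8 and S100a9 led it. Ifnar1 -/- library 4, the lowest for Mpo and Elane, had 2 of the 10 markers at 0. The 10 eosinophil markers, led by Prg2, Alox15, Ear2 and Ear1, summed to 188, 68391, 278, 68.0 and 348 CPM in Ifnar1 -/- libraries 1 to 5, against 31.8 to 2020 CPM in Ifnar1 +/- libraries. The 10 monocyte and macrophage markers, led by Ly6c2, Itgam, Adgre1 and Csf1r, summed to 3707 CPM in Ifnar1 -/- library 2 and 44.9 to 81.0 CPM in the other Ifnar1 -/- libraries, against 11.6 to 277 CPM in Ifnar1 +/- libraries. The 10 markers of granulocyte-monocyte progenitors other than the 5 genes, led by Ctsc, Plac8, Hp and Fcgr3, summed to 808, 4198, 1145, 1093 and 567 CPM in Ifnar1 -/- libraries 1 to 5, against 274 to 2768 CPM in Ifnar1 +/- libraries. Fcgr3, Hp, Igsf6 and Mgst1, at 1357, 1181, 469 and 389 CPM, and Prss57 were highest in Ifnar1 -/- library 2. Ctsc, Plac8, Cst7, Csf3r and Cebpa were highest elsewhere, with Ctsc at 131 CPM there and 1956 CPM in Ifnar1 +/- library 1. Of these 3 lists 10, 10 and 9 genes were tested, 0 were called, and the median log2 fold changes were 3.90, -0.63 and 1.52. Without Ifnar1 -/- library 2 they were -1.49, -1.52 and -1.21, with 0 called.

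The remaining lists were highest in other libraries than Ifnar1 -/- 2. The 10 mast cell and basophil markers, led by Hdc, Cpa3, Fcer1a and Cma1, summed to 1492, 1653, 508, 8462 and 1078 CPM in Ifnar1 -/- libraries 1 to 5, against 158 to 12430 CPM in Ifnar1 +/- libraries. The 10 erythroid markers, led by Hbb-bs, Hba-a1, Hbb-bt and Car1, summed to 1536 to 9905 CPM in Ifnar1 -/- and 754 to 102560 CPM in Ifnar1 +/- libraries. The 8 megakaryocyte and platelet markers, led by Itga2b, Pf4, Gp1ba and Ppbp, summed to 13.5 to 1887 CPM in Ifnar1 -/- and 20.0 to 2720 CPM in Ifnar1 +/- libraries. The 8 stem and multipotent progenitor markers, led by Ly6a, Kit, Cd34 and Meis1, summed to 49.5 to 1968 CPM in Ifnar1 -/- and 55.9 to 3387 CPM in Ifnar1 +/- libraries. The 8 T and NK cell markers summed to 15.9 to 443 CPM in Ifnar1 -/- and 26.5 to 643 CPM in Ifnar1 +/- libraries, led by Nkg7, Klrb1c, Cd4 and Cd3d, while Cd8a and Ncr1 were at 0 in 7 libraries each. In the library with the highest sum, Ifnar1 +/- 2, Nkg7 alone was at 637 CPM. Cd3e, Cd3g, Cd3d and Cd4 were at 0.133 to 0.867 CPM there. The 12 B-lineage markers, led by Cd79a, Igll1, Vpreb3 and Cd79b, summed to 12.9 to 9982 CPM in Ifnar1 -/- and 12.3 to 10277 CPM in Ifnar1 +/- libraries. In these 6 lists 0 genes were called, and 10, 10, 7, 8, 3 and 11 were tested. Their median log2 fold changes were -0.59, -2.25, 0.34, 0.15, 0.19 and -0.61 in the same order. Without Ifnar1 -/- library 2 that of the megakaryocyte and platelet markers was 0.72, that of the stem and multipotent progenitor markers 0.47 and that of the B-lineage markers -0.23.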

How the data were processed

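Bulk RNA was sequenced from 11 AML libraries of mice. The labels' protocols name Qiagen columns for RNA and a Clontech kit of the SMART type for the libraries. The authors deposited estimated counts per gene, unscaled between libraries. Per the submitters' processing notes, bcl2fastq and DRAGEN were used, with versions not stated. Not given in the sources used here: aligner settings, genome build and strand setting. In all, the table held 55774 rows, of which 287 identical copies of repeated identifiers were dropped, leaving 55487 genes. A reference table gave a symbol to 55141 of them.

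Counts were rounded and tested two-sided in edgeR 4.0.16 (R 4.3.3) with filterByExpr, TMM and the robust quasi-likelihood F-test, and p-values were adjusted by Benjamini-Hochberg over all 14521 tested genes. The SE is |log2 fold change| over the root of F. Group differences of single genes were also tested by exact permutation, and correlations with 100000 permutations, or exactly over 6 libraries, in scipy 1.17.1. Libraries were split at 100 CPM of Ebf1 for description. The edgeR step was tested on simulated data. Simulated libraries of a genotype varied less than the real ones, so that run does not show what changes the test could find here. DESeq2 1.42.0, limma voom 3.58.1, other scalings and filters, an Ebf1 covariate, left-out libraries and the replicate number as a block were alternatives. The limma voom run also weighted each library by a quality estimated from the data.

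The 5 genes, the 15 gene lists and the tests were chosen with earlier results of these data known. Genes named are the 5, Ebf1, the 8 most like them, up to 4 of a list with the highest mean CPM, neighbours of Prtn3 and Elane, and others said to be named after their values were seen. Some genes under this rule are not reported here. Gene positions and exon lengths are GENCODE M21, and sequences are RefSeq GRCm38.p6, which had all 5 genes.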

Additional observations from a re-analysis of the deposited data

Results flagged for a closer look

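A value was marked here when it lay far from the other libraries of its genotype by Dixon's test at the 95% level. For normally distributed values chance marks about 1 in 20 groups. CPM were used without logarithms and vary widely, so the rate that chance gives here is not known. The marks numbered 24 over 92 groups looked at, 13 of them through Ifnar1 -/- library 2. Values are CPM of the marked library, with the nearest other library of the genotype in parentheses where it concerns the 5 genes. No explanation was tested for any of them.

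In Ifnar1 -/- library 2, Prtn3 had 40.5 (6.99) and Ms4a3 had 87.6 (4.82), and the 5 genes summed to 151 (41.8). In the same library Alas1 had 791, R3hdm4 326, Man2b1 2179, Spi1 507, Prss57 180 and Pilra 27.3. Its summed markers were 68391 for eosinophils, 39024 for late neutrophils, 3707 for monocytes and macrophages and 4198 for granulocyte-monocyte progenitors. In Ifnar1 -/- library 4, Gzmb had 1300, Cma1 1616 and the mast cell and basophil markers 8462. In Ifnar1 -/- library 1 the erythroid markers summed to 9905.

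In Ifnar1 +/- library 6, the erythroid markers summed to 102560, and the haem synthesis genes Urod and Fech had 147 and 280. In Ifnar1 +/- library 1, Serpinb1a had 3957 and Glb1 3309. The T and NK cell markers summed to 643 in Ifnar1 +/- library 2, where Nkg7 alone had 637. Cfd had 0.0482 in Ifnar1 +/- library 5 against 0 in the others.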

How the results depend on the processing

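Of the 5 genes, 0 were called under each of 21 alternatives, where DESeq2 tested 4 of them, giving no p for Ms4a3. The number of genes called was 0 in 20 of them and 3 with DESeq2, none of them among those 4. The log2 fold changes of Mpo, Elane and Ctsg stayed below 0 in all alternatives run, at -3.52 to -0.59, -3.82 to -1.10 and -1.84 to -0.56. Without Ifnar1 -/- library 2, Prtn3 had -0.80 and Ms4a3 -0.53, against 0.77 and 2.14 with all libraries in edgeR. With limma voom, which weighted the libraries by estimated quality, Ms4a3 had -0.045. With each library left out the highest values of Prtn3 and Ms4a3 were 1.22 and 2.43. Ctsg did not pass a filter of 5 CPM in 5 libraries. With the replicate block, 0 genes were called and Ms4a3 had 0.74. Same-numbered libraries had correlations of 0.41, 0.15, 0.58, -0.55 and 0.52 in their deviations, so the numbers were not taken as a pairing.

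The count of pairs of genes with an adjusted p under 0.05 was 2 to 8 when each library was left out, an alternative chosen after seeing the data, against 5 with all. Of 130 values of single pairs, 102 kept their direction and side of the threshold. The r of Prtn3 and Ctsg turned to -0.046, -0.025 and -0.014 without Ifnar1 -/- library 4, Ifnar1 +/- library 3 and Ifnar1 +/- library 6, and that of Ctsg and Ms4a3 to -0.0097 with a pseudocount of 5. The first of these pairs reached 0.350 without Ifnar1 -/- library 2. No member was apart by Ebf1 level under 14 alternatives. Among list medians, those of eosinophil, late neutrophil and progenitor markers turned to -1.49, -0.76 and -1.21 without Ifnar1 -/- library 2, a setting also added after seeing the data. Depth limits Ctsg, with 4 to 92 counts per library, and Mpo and Elane in Ifnar1 -/- libraries 1 and 4, with 0 to 4.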
